A study of Homo sapiens with 7 samples.

Results

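The integrin and laminin gene families were followed on 7 Affymetrix arrays of HT1080, a human cell line established from a fibrosarcoma. The members were all genes named ITGA or ITGB for an integrin chain, and LAMA, LAMB or LAMC for a laminin chain, read from every probe set assigned to that gene alone. In all, 35 such genes were measured, on 95 probe sets, out of 19775 genes on the array. ITGB6 was not analysed here because its probe sets were also assigned to a second gene.

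The cells came from 7 cultures with 1 array each. Plant polyphenols were given to 4 of them for 2 h, 1 to each culture: 11.25 ng/ml of catechin, 6.25 ng/ml of epicatechin, 6.25 ng/ml of taxifolin and 2195 ng/ml of resveratrol. Another culture had 5% pycnogenol-positive serum, that is serum taken after intake of this pine bark extract, another had 5% control serum, both for 2 h, and the last was untreated. The medium of the treated wells was renewed before the compound or serum was added. The labels give no medium change, time or solvent for the untreated culture, so these cannot be told apart from a treatment wherever that array is the reference. With no replicates, the differences have no replicate error, and no p-value was computed.

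Integrins are cell surface receptors made of an alpha and a beta chain, and they tie the extracellular matrix to the actin cytoskeleton. Laminins are secreted trimers of an alpha, a beta and a gamma chain that form the network of basement membranes, and several integrins bind them. In cultured tumour cells these receptors are known for their part in adhesion, spreading and migration.

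The values are MAS5 signals, linear intensities that were scaled to the same trimmed mean on every array, with array medians of 114 to 136. Each gene was read from its brightest probe set, and genes with a mean signal at or above 269, the median over all genes, were compared. No detection calls were at hand, so a signal under 269 was not shown to lie above background. Differences are on the log2 scale, the culture named first minus its reference, and a signal on 1 probe set is never set against that on another. Of the genes fixed as markers of mesenchymal cells, 7 of 11 lay above the filter, among them VIM at 46701 to 50229, while S100A4, THY1, PDGFRB and FAP did not. None of 8 epithelial and none of 5 endothelial markers did, and of 10 blood cell markers, 8 of which were measured, only HBB did, at 227 to 522. The summed signal of those 8 was 789 to 842 on the serum arrays and 693 to 819 on the other 5, and its part in the results below was not tested.

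Above the filter lay 18 of the 35 members, and together they make up a partial set of receptor and ligand chains. Among 18 integrin alpha chains these were ITGA2, ITGA3, ITGA4, ITGA5, ITGA6, ITGA10, ITGAE and ITGAV, and among 7 beta chains ITGB1, ITGB5 and ITGB8. ITGB1 encodes the beta chain that pairs with the products of ITGA2 and ITGA10 as collagen receptors, of ITGA3 and ITGA6 as laminin receptors, of ITGA4 and ITGA5 as fibronectin receptors, and of ITGAV. ITGAV also pairs with the products of ITGB5 and ITGB8, which bind vitronectin and latent TGF-beta. ITGB7, whose product is the known partner of the ITGAE chain, read 8.58 to 112 and so lay under the filter on all 7 arrays, while ITGAE read 5362 to 7788.

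The laminin chains above the filter were LAMA1, LAMA4 and LAMA5, then LAMB1, LAMB2 and LAMB3, and LAMC1. The products of LAMB1 and LAMC1 assemble with that of any of the 3 alpha chains. LAMB3, a beta chain of epithelial basement membranes, read 9945 to 14959 over the 7 arrays.

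The other 17 members had a mean signal under the filter. They were the collagen receptor chains ITGA1 and ITGA11, the laminin receptor chains ITGA7 and ITGB4, ITGA8, a nephronectin receptor chain, and ITGA9, a tenascin receptor chain. The leukocyte chains ITGAD, ITGAL, ITGAM, ITGAX, ITGB2 and ITGB7, the platelet chain ITGA2B, and ITGB3, found with ITGA2B and with ITGAV, were also among them. The laminin chains LAMA2, LAMB4 and LAMC3 completed the group. Over their 52 probe sets the signal ran from 1.82 to 305. On their brightest probe sets, ITGA1 passed 269 on the untreated array alone, at 305, and ITGB3 with resveratrol at 278 and in untreated cells at 270.

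**Figure D1:**
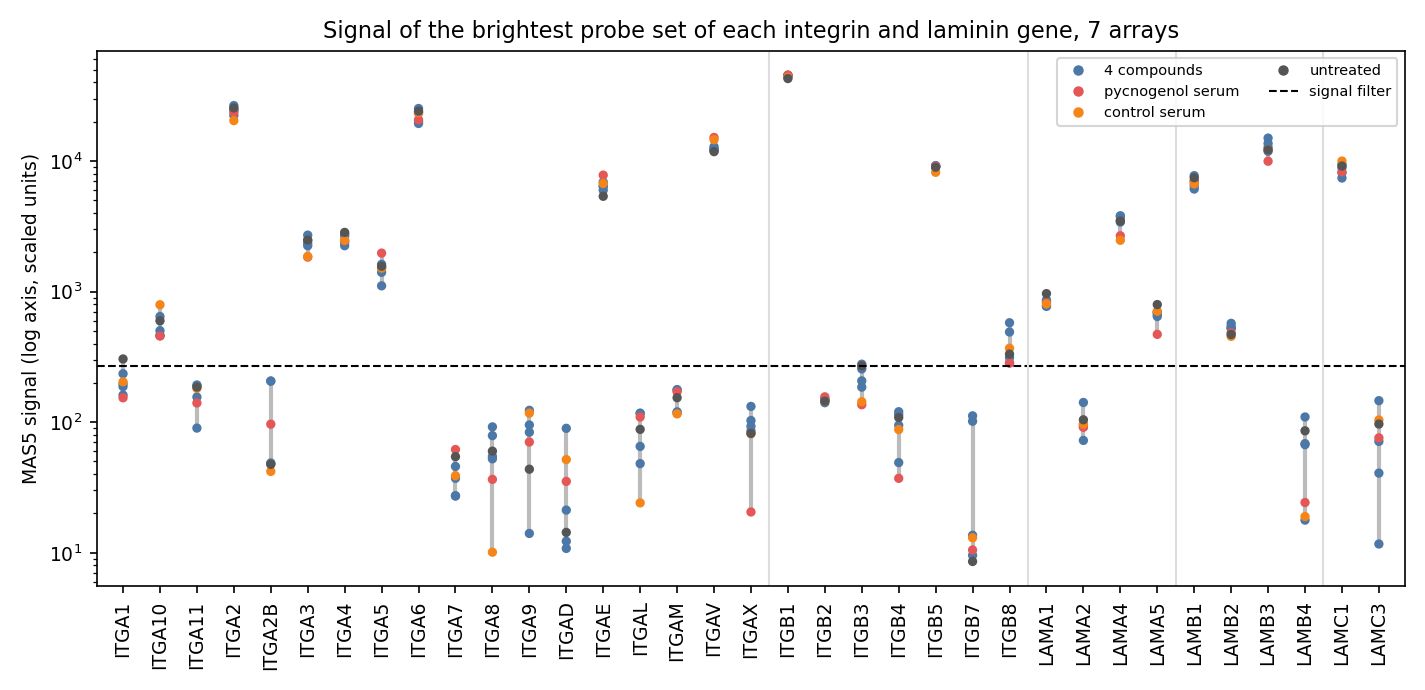
MAS5 signal (log axis) of the brightest probe set of each of the 35 measured integrin and laminin genes, with 1 point per array and grey lines from the lowest to the highest array. The dashed line is the filter at 269, above which 18 genes had their mean, and heights are to be read against that line and not between genes.

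On its brightest probe set, no member above the filter differed by 2-fold in any of the 6 comparisons with a control. The share of all 9888 compared genes that did was 1.2% for control serum against untreated cells, 0.536% for pycnogenol serum against control serum, 0.455% for catechin, 0.314% for epicatechin, 0.465% for taxifolin and 0.728% for resveratrol, each against untreated cells. Against shares this low, a count of 0 among 18 genes is not a result about the family. Of the 108 differences of 18 genes in 6 comparisons, 3 reached 1.5-fold, none of them with control serum, where 7.83% of all genes did. For 18 genes a count of 0 is near that share, so it is no result about the family either. Of the 32 member probe sets above the filter, 3 were lower by 1.5-fold with control serum, where 9.46% of all probe sets differed by as much. The largest of the 108 differences was that of ITGA10, 1.74-fold lower with pycnogenol serum than with control serum. An array cannot tell fewer cells with a transcript from less transcript per cell.

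The family as a whole lay close to all genes. The median difference was -0.048 (log2) with control serum, 0.039 with pycnogenol serum against control serum, -0.080 with catechin, 0.028 with epicatechin, 0.041 with taxifolin and -0.10 with resveratrol. The same medians over all compared genes ran from 0.0076 to 0.035. Above 0 lay 7, 10, 7, 10, 11 and 7 of the 18 members in that order, against 51.3%, 51.6%, 57.6%, 57.3%, 57.2% and 54.8% of all compared genes, where the compound comparisons and control serum share the untreated array.

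The signal of a member varied over the 7 arrays by a median of 0.41 (log2, highest minus lowest), against 0.47 over all compared genes. ITGB1, the most widely shared beta chain, had the smallest range at 0.089 on its brightest probe set, with signals of 42714 to 45420. Its other 2 probe sets above the filter varied more, by 0.47 with signals of 17620 to 24389 and by 0.33 with signals of 12663 to 15906. Whether the brightest was near saturation was not tested, so its narrow range is a reading of that probe set. ITGB8 had the widest at 1.02. Between pairs of arrays the standard deviation (SD) of differences over members ran from 0.16 to 0.35. It was below that over all genes in 17 of 21 pairs, which share the 7 arrays and so are not independent. Of the members compared, 12 had a mean signal at or above 2168, the 75th percentile over all genes. No set of genes with like signal was compared, so neither the count of pairs nor the median range is a result about the family. Across those 21 pairs 2 differences reached 2-fold, both of ITGB8, which was 2.03-fold lower with resveratrol and with pycnogenol serum than with catechin.

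**Figure D2:**
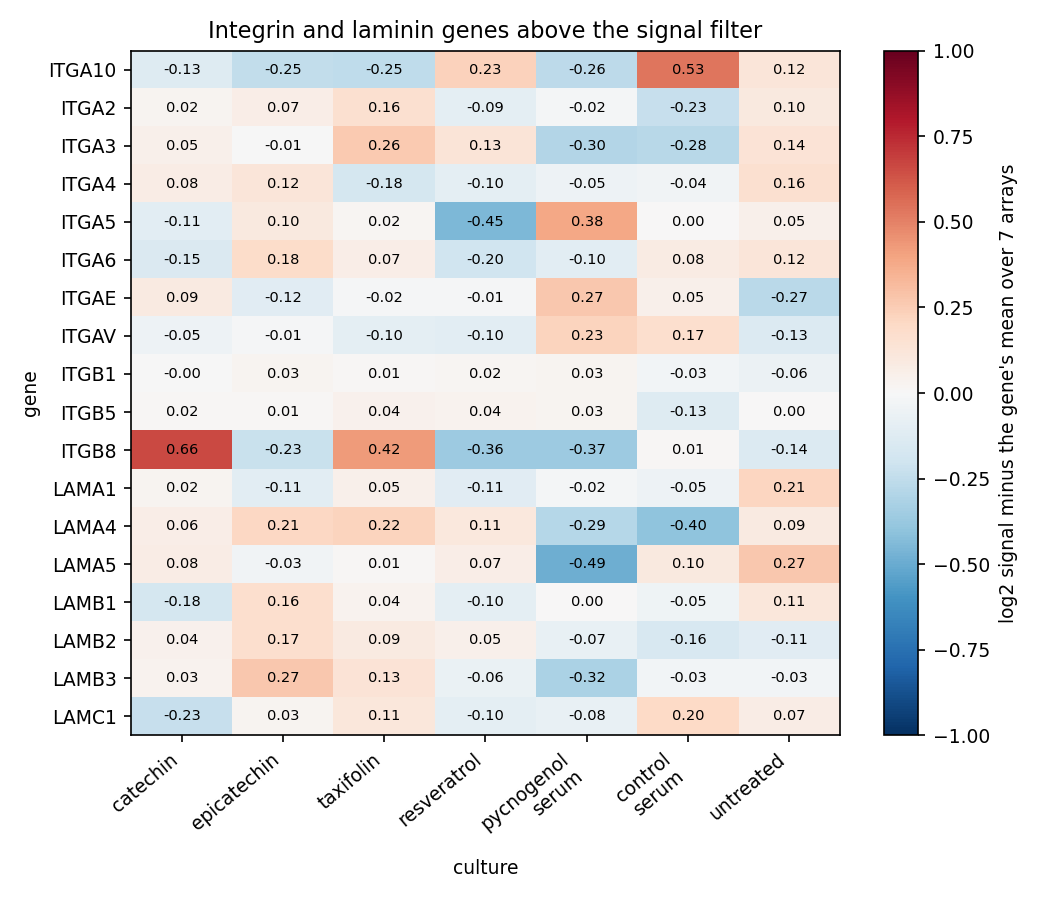
Log2 signal of the 18 members above the filter on each array, minus the mean of that gene over the 7 arrays (red higher, blue lower). ITGB1, read from its brightest probe set, stays near 0 in every column, ITGB8 stands out with catechin and taxifolin, and LAMA4 and ITGA3 are low in both serum columns.

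Both serum arrays lay apart from the 5 arrays without test serum for 3 of the 18 members, or 16.7%, against 29.6% of all compared genes. Higher on both was ITGAV, against a background of 13.5% of genes, and lower on both were LAMA4 and ITGA3, against 16.1%. The members' shares were 5.56% higher and 11.1% lower. For 18 genes these counts are near the shares of all genes, so they are no result about the family. The serum arrays are different treatments, not replicates, and the comparison is a description.

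LAMA4 encodes the laminin alpha chain known from the basement membranes of vessels, muscle and fat. Its signal was 2672 with pycnogenol serum and 2469 with control serum, against 3403 with catechin, 3757 with epicatechin, 3803 with taxifolin, 3505 with resveratrol and 3467 in untreated cells. All 5 cultures without test serum read above both with it, and the mean difference was -0.48 (log2), the lowest of any member. Against untreated cells LAMA4 was lower by 1.40-fold with control serum. A second LAMA4 probe set, 210089_s_at, read 687 with pycnogenol serum and 641 with control serum, against 770 to 1027 on the other 5 arrays, so it had the same order. The third above the filter, 210990_s_at, read 441 and 399 on the serum arrays, against 248 to 665 on the others, and overlapped them.

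ITGA3 encodes the alpha chain of a receptor for laminins. It read 1834 with pycnogenol serum and 1858 with control serum, against 2333 with catechin, 2242 with epicatechin, 2703 with taxifolin, 2460 with resveratrol and 2480 in untreated cells. Both serum arrays were below all others, with a mean difference of -0.40. ITGA3 has 1 probe set, with the suffix _s_at, and no second reading.

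ITGAV encodes the alpha chain of receptors for vitronectin and other ligands with an RGD sequence. Its signal was 15121 with pycnogenol serum and 14531 with control serum, against 12456 with catechin, 12852 with epicatechin, 12091 with taxifolin, 12025 with resveratrol and 11776 in untreated cells. The serum arrays were the highest, with a mean difference of 0.28, or 1.21-fold. ITGAV also has 1 probe set.

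The promoter windows of LAMA4 and ITGAV are printed as those of members on opposite sides of the serum comparison. They are from RefSeq on GRCh38.p14 and run 5′ to 3′ along the gene, with 250 bases before the transcription start and 50 after. ITGAV has 2 annotated starts. The LAMA4 window lies at chr6:112254518-112254817 on the minus strand, and the ITGAV windows lie at chr2:186589806-186590105 and chr2:186599955-186600254 on the plus strand. Capitals mark a match to any of 4 motifs searched on both strands.
LAMA4: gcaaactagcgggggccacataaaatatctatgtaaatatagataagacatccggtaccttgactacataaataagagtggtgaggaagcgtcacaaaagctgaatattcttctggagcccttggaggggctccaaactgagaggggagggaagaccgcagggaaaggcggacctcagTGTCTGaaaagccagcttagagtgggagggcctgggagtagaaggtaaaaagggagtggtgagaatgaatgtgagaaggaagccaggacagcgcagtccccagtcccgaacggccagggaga
ITGAV, upstream start: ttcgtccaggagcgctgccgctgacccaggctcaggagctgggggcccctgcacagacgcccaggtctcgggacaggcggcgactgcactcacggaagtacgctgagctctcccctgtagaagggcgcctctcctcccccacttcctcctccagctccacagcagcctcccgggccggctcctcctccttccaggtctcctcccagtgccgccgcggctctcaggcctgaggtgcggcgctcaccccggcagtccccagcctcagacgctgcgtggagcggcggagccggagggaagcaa
ITGAV, downstream start: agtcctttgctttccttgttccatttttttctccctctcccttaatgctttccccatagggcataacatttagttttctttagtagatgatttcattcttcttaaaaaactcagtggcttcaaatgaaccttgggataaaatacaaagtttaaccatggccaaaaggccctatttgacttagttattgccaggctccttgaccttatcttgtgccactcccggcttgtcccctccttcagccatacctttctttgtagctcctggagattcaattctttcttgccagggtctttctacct
The motifs were TGANTCA for AP-1, CAGACA for SMAD proteins, GGGCGG for the GC box and TATAAA for the TATA box. LAMA4 held CAGACA, read on the opposite strand from 72 bases before the start, and neither ITGAV window held any of the 4. Of all 35116 promoter windows 16.9% held CAGACA, so a match is common and only describes these letters.

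Promoter windows were at hand for 16 of the 18 members above the filter, 23 windows in all. The GC box was found in 16 of the 23, or 69.6%, for 11 genes, against 45.0% of all windows. CAGACA was found for ITGA5 and LAMA4, TGANTCA for ITGA5 and LAMB3, and TATAAA for ITGA6 and ITGB1, each in 8.70% of the member windows. The shares over all windows were 16.9%, 7.71% and 11.5%. All windows were taken whatever the signal of their gene, so the sets compared are unlike, and no matched set was used. The median share of G and C was 61.3% in the member windows and 58.7% in all windows. Windows of 1 gene can overlap, and motif matches do not show binding.

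With pycnogenol serum against control serum, 2 of 18 members were lower by at least 1.5-fold, where 4.24% of all genes differed by as much in either direction. ITGA10, a collagen receptor chain of cartilage, read 456 with pycnogenol serum, against 793 with control serum, a difference of -0.80. It read 502 with catechin, 462 with epicatechin, 460 with taxifolin, 644 with resveratrol and 597 in untreated cells. The control serum array was the highest of the 7 and the pycnogenol serum array the lowest, close to epicatechin and taxifolin. The differences from untreated cells were -0.39 with pycnogenol serum and 0.41 with control serum.

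LAMA5, a laminin alpha chain widespread in epithelial and vascular basement membranes, read 470 with pycnogenol serum, against 707 with control serum, a difference of -0.59. At 1.504-fold it was just past the threshold. It read 696 with catechin, 644 with epicatechin, 666 with taxifolin, 692 with resveratrol and 795 in untreated cells. The pycnogenol serum array was the lowest and the untreated array the highest, and the other 5 lay within 644 to 707. ITGA5, the alpha chain of the classical fibronectin receptor, was the highest member in this comparison at 0.38, with 1970 against 1511, and it was the lowest with resveratrol at -0.50, with 1106 against 1563 in untreated cells. LAMB3 was at -0.29 and LAMC1 at -0.27 with pycnogenol serum against control serum. LAMA5, ITGA10 and ITGA5 each have 1 probe set.

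**Figure D3:**
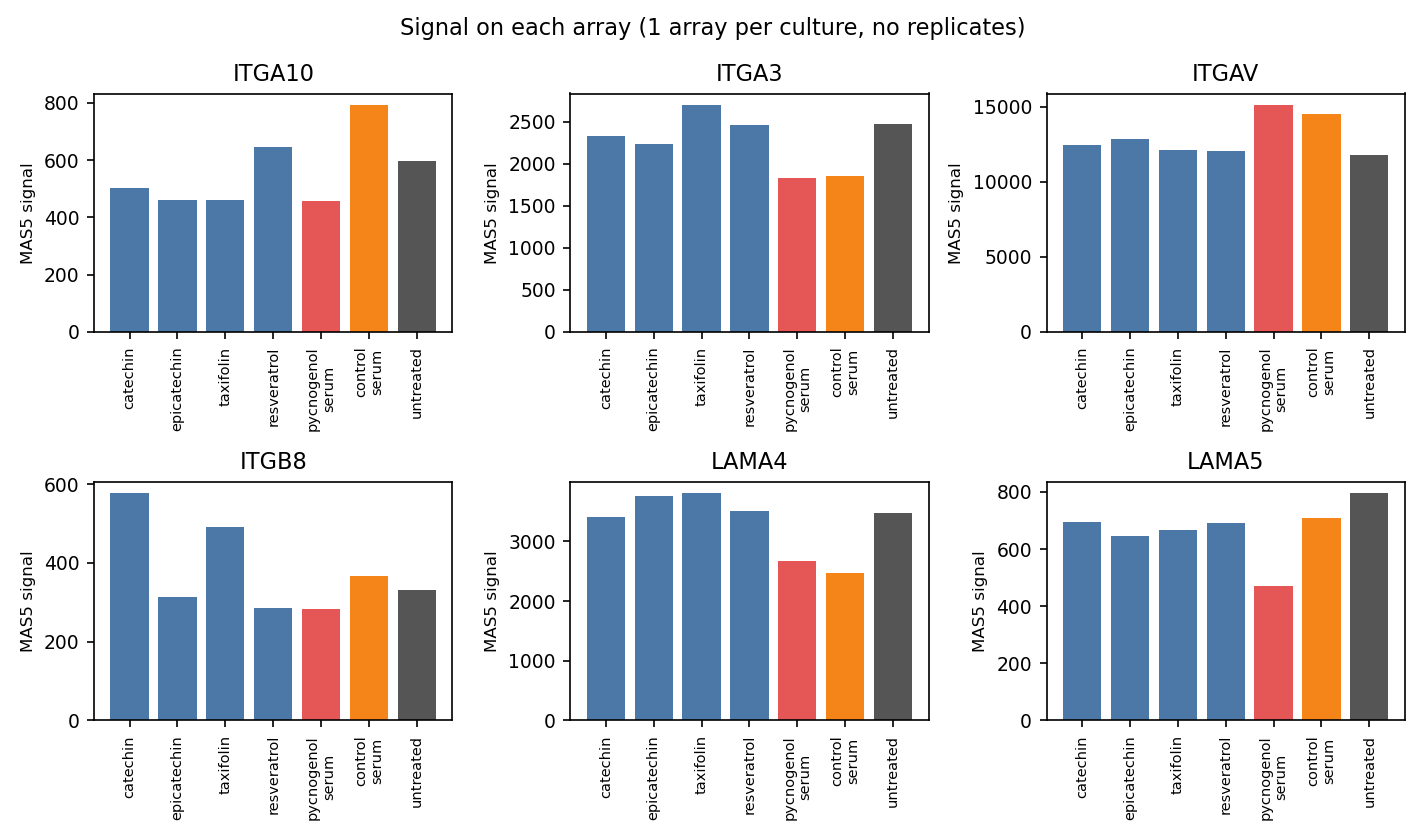
MAS5 signal of the brightest probe set on each of the 7 arrays (bars from 0, 1 array per culture). Shown are the 6 members where it reached 1.5-fold in a comparison with a control or kept the serum arrays apart. Both serum bars are the lowest for ITGA3 and LAMA4 and the highest for ITGAV, and ITGB8 is highest with catechin at 577.

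Among the compounds, ITGB8 was the member that reached 1.5-fold against untreated cells on its brightest probe set, and it did so with catechin alone. The share of all genes that did was 3.55% with catechin, 2.82% with epicatechin, 3.3% with taxifolin and 4.46% with resveratrol. ITGB8 encodes a beta chain whose receptor binds latent TGF-beta. It read 577 with catechin, 313 with epicatechin, 490 with taxifolin and 284 with resveratrol, then 284 with pycnogenol serum and 368 with control serum, against 332 in untreated cells. The differences from untreated cells were 0.80 with catechin, -0.087 with epicatechin, 0.56 with taxifolin and -0.22 with resveratrol. Catechin and taxifolin were the highest arrays, and the other 5 lay within 284 to 368, near the filter. Its other 4 probe sets lay under the filter.

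Taxifolin and epicatechin, both flavonoids, were given at the same dose of 6.25 ng/ml for the same 2 h, and taxifolin carries a keto group that epicatechin lacks. ITGB8 read 490 with taxifolin, against 313 with epicatechin, a difference of 0.65. On brightest probe sets it was the member that passed 1.5-fold, where 3.47% of all genes did. No member reached 2-fold, with 0.324% of all genes. The other 17 members lay between -0.30 for ITGA4 and 0.27 for ITGA3, and the median over members was 0.0054. With 1 array each there is no interval for these differences. Catechin and epicatechin differ in the arrangement at 1 carbon, but their doses differed, so their values stand side by side without a comparison.

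On their brightest probe sets the remaining members stayed within narrow ranges over the 7 arrays. ITGA2 read 20348 to 26537, ITGA6 19354 to 25190, ITGA4, a chain that binds fibronectin and VCAM1, 2244 to 2837, and ITGB5, a vitronectin receptor chain, 8184 to 9207. Of the laminins, LAMA1, the alpha chain of early embryonic basement membranes, read 771 to 964, LAMB1 6092 to 7713, LAMB2, a beta chain of neuromuscular and kidney basement membranes, 454 to 571, and LAMC1 7399 to 9979. None of these reached 1.5-fold in a comparison with a control on the brightest probe set, while other probe sets of ITGA2, ITGA6 and ITGB5 did.

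ITGAE was above its untreated signal of 5362 on all 6 other arrays, by 0.36 with catechin, 0.15 with epicatechin, 0.26 with taxifolin, 0.26 with resveratrol, 0.54 with pycnogenol serum and 0.32 with control serum. ITGAV was also lowest in untreated cells, and so was ITGB1 on its brightest probe set, though not on its other 2 above the filter, which read 21447 and 15386 there. On their brightest probe sets ITGA4, LAMA1 and LAMA5 were highest in untreated cells. For ITGA4 this was also so on 243366_s_at. It was not so on 205884_at, where untreated cells read 453 and control serum 587. Nor was it on 205885_s_at, at 663 in untreated cells against 669 with catechin. An untreated array below all others was seen for 3 of 18 members and 16.9% of all genes, and one above all others for 3 of 18 and 9.68%. ITGA10 was the lowest member with epicatechin and taxifolin at -0.37 and -0.38, and LAMC1, the gamma chain of most laminins, was the lowest with catechin at -0.31. LAMB1 and ITGA6 lay at -0.29 and -0.26 with catechin, and at -0.21 and -0.32 with resveratrol.

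**Figure D4:**
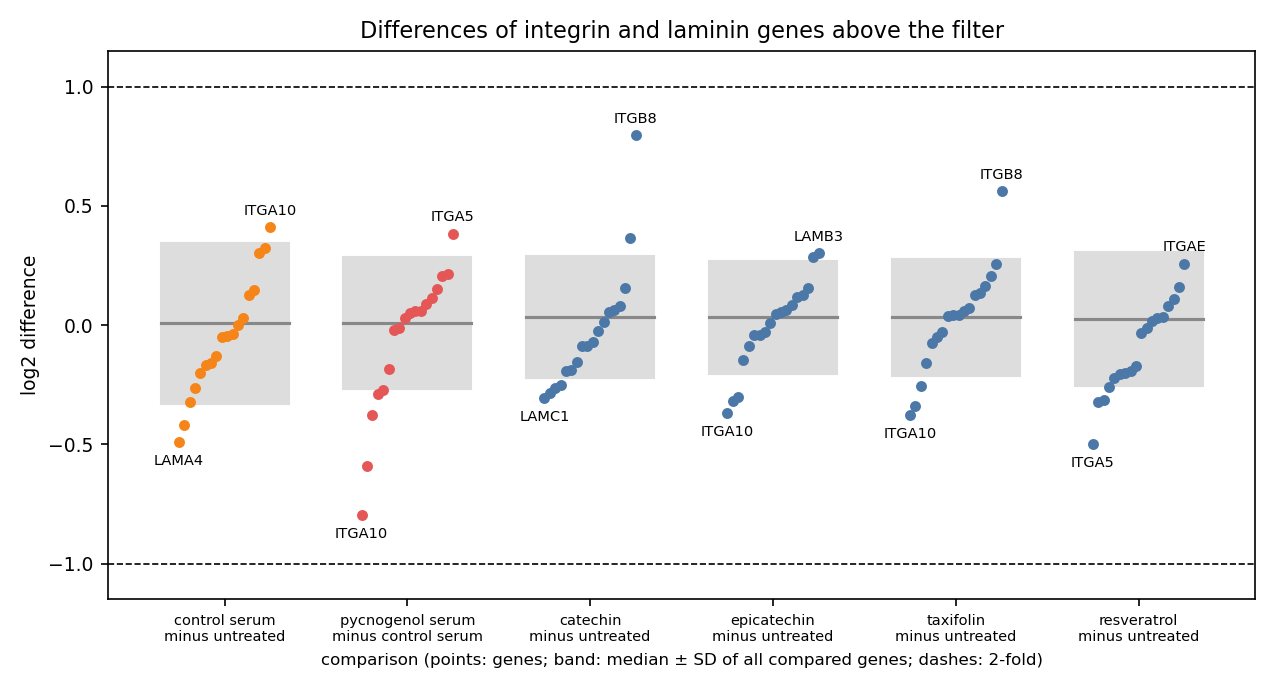
Log2 difference of each of the 18 members above the filter in the 6 comparisons (points), with the median ± SD of all compared genes as a grey band and dashes at 2-fold. All points lie inside the dashes, with ITGB8 at 0.80 with catechin and ITGA10 at -0.80 with pycnogenol serum farthest out.

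Probe sets of the same gene gave unequal sizes. Above the filter lay 32 member probe sets, and of the 14 that were not the brightest of their gene, 11 had the direction of the brightest with control serum, 10 with pycnogenol serum against control serum, 8 with catechin, 6 with epicatechin, 10 with taxifolin and 12 with resveratrol. The genes of the next 2 paragraphs were chosen after their values were seen.

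ITGA2, a collagen receptor chain, was lower with control serum and with resveratrol on both its probe sets. On 205032_at it read 6399 with resveratrol and 6034 with control serum, against 10581 in untreated cells, and 10120 with catechin, 9536 with epicatechin, 11243 with taxifolin and 9067 with pycnogenol serum. Resveratrol and control serum were the lowest arrays by a clear gap, lower than untreated cells by 1.65-fold and 1.75-fold. On the brightest probe set, 227314_at, they were also the lowest, at 22295 and 20348, against 25448 in untreated cells, with differences of -0.19 and -0.32. Of all probe sets above the filter, 6.6% differed by 1.5-fold with resveratrol and 9.46% with control serum. ITGA6 likewise had differences of -0.04 and -0.63 on its 2 probe sets with control serum, so the lower reading on 215177_s_at was not shared by 201656_at. On 215177_s_at both serum arrays lay below all others, at 4286 with pycnogenol serum and 4636 with control serum, against 4768 to 7189. The gap was small, since epicatechin read 4768. The untreated array was the highest at 7189, and the next was taxifolin at 6044. On 201656_at the serum arrays overlapped the others.

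With resveratrol LAMA4 passed 2-fold on 1 of its probe sets above the filter. On 210990_s_at it read 248 with resveratrol, against 665 in untreated cells, a difference of -1.42, where 1.08% of probe sets differed by 2-fold. The other 2 LAMA4 probe sets did not share it, at 0.016 on the brightest and 0.053 on 210089_s_at. The untreated array was the highest on 210990_s_at, since the other 5 read 399 to 452. ITGB5 on 201124_at read 741 with catechin and 653 with resveratrol, against 435 in untreated cells, while its brightest probe set read 9038 and 9166, against 8948. Of all probe sets above the filter, 4.74% differed by 1.5-fold with catechin.

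**Figure D5:**
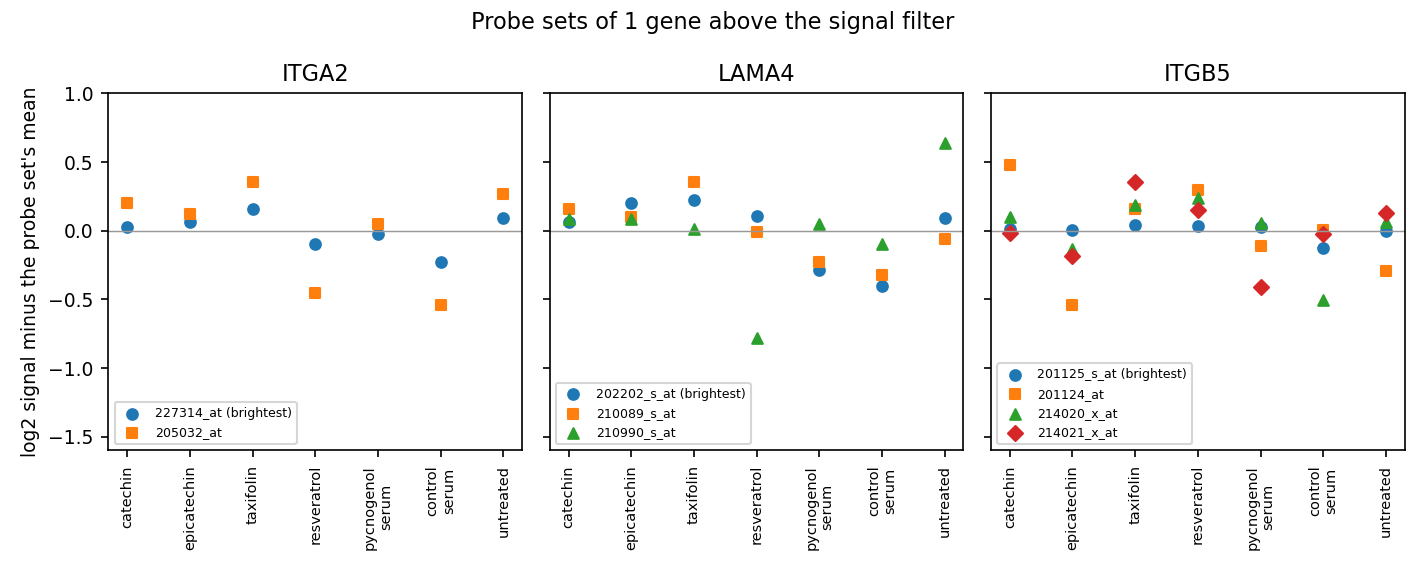
Log2 signal of each probe set above the filter minus its own mean over the 7 arrays, for ITGA2, LAMA4 and ITGB5. Both ITGA2 probe sets are lowest with resveratrol and control serum, while 1 LAMA4 probe set is low with resveratrol and the other 2 are not.

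Genes that work with integrins and laminins were read from 3 lists. Of 37 genes of the adhesion machinery inside the cell, 28 lay above the filter, and none reached 2-fold with control serum against untreated cells or with pycnogenol serum against control serum, where 1.2% and 0.536% of all genes did, so that count is no result about the list. With both serum arrays against the other 5, 24 of the 28 lay above 0, where 48.1% of all genes did. The median was 0.18, where that over all genes was -0.010. For 8 of the 28 both serum arrays were above all others, where 13.5% of all genes were. For TES they were below, where 16.1% of all genes were. TNS1, a tensin that binds integrin tails, read 726 with pycnogenol serum and 686 with control serum, against 275 to 524. KANK1, a talin-binding scaffold, read 3593 and 3738 there, against 1893 to 3279. TES, an actin regulator of focal adhesions, read 8352 and 8155, against 10433 to 13890, but a second TES probe set did not keep the serum arrays apart.

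Of 23 matrix ligands and basement membrane partners, 16 lay above the filter, with a median of 0.14 for both serum arrays against the other 5. None reached 2-fold with control serum against untreated cells or with pycnogenol serum against control serum, next to the same 1.2% and 0.536% of all genes. Both serum arrays lay above the others for 5 of the 16 and below for 2, against 13.5% and 16.1% of all genes, so the count of lower genes was near its background. COL4A1, a collagen chain of basement membranes, read 13966 with pycnogenol serum and 13437 with control serum, against 7196 to 9689. FN1, fibronectin, read 10757 and 10325 there, against 6343 to 7571. NTN4, a netrin that binds the laminin gamma chain, read 2852 and 2728, against 4394 to 5060, so it was low where COL4A1 and FN1 were high. The second COL4A1 probe set and the other 3 of FN1 above the filter also had both serum arrays above the rest.

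Of 16 other laminin receptors and membrane partners of integrins, 13 lay above the filter, with a serum median of -0.011. Both serum arrays lay above the others for SDC1, a heparan sulfate proteoglycan, and below for SLC3A2 and PLAUR, that is 1 and 2 of 13, against 13.5% and 16.1% of all genes, which is not above the background. Of the other 2 PLAUR probe sets above the filter, 1 overlapped, with a serum difference of -0.023. A second SDC1 probe set, at 3545 with pycnogenol serum and 3543 with control serum, against 2907 to 3778, overlapped. CD9, a tetraspanin that associates with integrins, was lower than its untreated signal of 679 on all 6 other arrays. It read 462 with catechin, 457 with epicatechin, 430 with taxifolin, 381 with resveratrol, 267 with pycnogenol serum and 444 with control serum. The difference of pycnogenol serum from untreated cells was -1.35, where 2.24% of all genes differed by 2-fold, and that from control serum was -0.73.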

How the data were processed

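Total RNA of 7 HT1080 cultures was measured on 1 Affymetrix array each, with 54675 probe sets. The deposited values are signal intensities on a linear scale that the authors computed with MAS5, per the submitters' processing notes. The MAS5 version is not given in the sources used here. The trimmed mean (2% from each end) was checked and was 1000.1 on every array. The number of arrays limits the precision.

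The platform annotation assigned 41091 probe sets to 1 gene and 1801 to several, which were left out. Symbols were updated through RefSeq for GRCh38. A floor at the 25th percentile, 34.8, was set under the signals before log2 was taken. The brightest probe set over the 7 arrays stood for its gene, and 9888 of 19775 genes at or above the median of the genes' means were compared. Each group held 1 array, so no test was run, and 2-fold marked a call. Values on all 7 arrays are given for members above the filter that reached 1.5-fold in a comparison with a control or whose serum arrays did not overlap the others. From the lists of partner genes, those with the largest serum differences are named. The members and lists were chosen with earlier results of these data known. Protein sequences were not used here. Calculations were run in Python 3.11.15 with pandas 2.3.3 and statsmodels 0.14.6 and were tested on simulated data. The alternatives were other normalizations, filters, floors, readings of the probe sets, thresholds and reference arrays.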

Additional observations from a re-analysis of the deposited data

How the results depend on the processing

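Counts past 2-fold of the 18 members were 0 in all 6 comparisons and between taxifolin and epicatechin. They stayed 0 under quantile normalization, median centring and loess between pairs of arrays (span 0.3). With the mean of all probe sets, which kept 17 members, they were also 0. No floor, a floor at the 40th percentile, a filter at the 75th percentile and a 3-fold threshold gave 0 too. These last outcomes were fixed in advance, since the floors lie under the signals of these members. The higher filter kept 12 of the same members, and a stricter threshold cannot add to a count of 0. Without the filter all 35 members entered and the counts became 3 with control serum, 4 with pycnogenol serum against control serum, 3 with catechin, 4 with epicatechin, 3 with taxifolin, 2 with resveratrol and 4 for taxifolin against epicatechin, all from members under the filter, such as ITGA2B, ITGA9 and ITGB7. At 1.5-fold the counts became 2 with pycnogenol serum against control serum, 1 with catechin and 1 for taxifolin against epicatechin. Of those 2, LAMA5 fell under 1.5-fold with median centring, at -0.578, and had no reading without _x_at and _s_at probe sets. Both, ITGA10 and LAMA5, lay under the filter at the 75th percentile. Without _x_at and _s_at probe sets catechin gave 1, ITGA11 at -1.05, which entered as the median of the remaining genes was 153. With the untreated array as reference pycnogenol serum also gave 0. Medians of the members moved by less than the SD of differences over all genes under each setting that was run. That SD is a spread of single genes and wide for a median, and some medians changed sign. With pycnogenol serum against control serum the median was 0.039 and became -0.15 without _x_at and _s_at probe sets. With the mean of all probe sets it went from 0.028 to -0.12 with epicatechin and from 0.041 to -0.028 with taxifolin.

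The count of members lower on both serum arrays was 2 and became 5 without the filter and 0 without _x_at and _s_at probe sets, where ITGA3 and LAMA4 had no reading above the filter. LAMA4 lost its separation with the mean of all 5 of its probe sets, at a serum difference of -0.31. ITGAV kept its separation under all 9 settings, but only the normalizations could have changed it. With 1 probe set far above the filter, its values were the same under all the other settings. When 1 array was left out, the serum difference of LAMA4, ITGA3 and ITGAV kept its direction for each of the 7 arrays. This outcome was fixed in advance, since both serum arrays of these genes lay apart from all others. The serum difference of ITGA10 was 0.59 without the pycnogenol serum array and -0.21 without the control serum array, and that of LAMA5 0.021 and -0.57. No paired analysis was possible because each group held 1 array. Signals near the filter, such as those of ITGB8, limit how well its size is known.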
